A study of Mus musculus with 6 samples.

Results

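A set of 53 mouse genes of the Toll-like receptor, NF-κB and inflammasome pathway was looked up by exact symbol in the deposited expression table of injured mouse quadriceps, and 52 of the 53 were found among its 14016 rows. The gene not listed was Tnf. The table came from bulk polyA RNA-seq of 6 muscles taken at day 7 after volumetric muscle loss, a surgical removal of part of the quadriceps, with ERCC spike-in RNA and no implant. Of these, 3 were from WT mice, which the study's methods give as female C57BL/6 animals of 10 to 12 weeks, and 3 were from mice whose genotype is labelled GATA-1 mutant. The mutants are the ΔdblGATA strain, which lacks a GATA site in the promoter of Gata1 in every cell and is known as an eosinophil-deficient model. Their age was not given in the sources used here, and all 6 samples shared the injury and the saline-filled defect. The question was what the absence of eosinophils does to the injured muscle.

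The values used here are 1 number per gene, the authors' mean log2 CPM (counts scaled to a common library size) over all 6 muscles of both genotypes. Values per mouse and the genotype contrast were not analysed here, so no genotype comparison was made and neither a replicate error nor the sequencing depth of a sample can be attached to any level. What follows describes how strongly each gene was represented in the injured muscle averaged over both genotypes. To compare genes with each other, the mean log2 CPM was lowered by the log2 of the transcript length in kilobases, and this per-length level was placed as a percentile among the 13948 listed genes for which a length was found. Differences were set only against the range that 3 definitions of transcript length gave (longest coding, median and principal transcript). That range covers the length and not the mice. The median was taken over all annotated transcripts of a gene, coding or not. It can lie below the shortest coding transcript, as for Chuk (796 against 3481 bases) and Map3k7 (865 against 5416). The same held, among others, for Tab1 (504 against 2964), Tlr4 (1256 against 1866) and Cd14 (1254.5 against 1641). Unless another length is named, per-length levels, percentiles and ranks are those of the longest coding transcript. Because the muscle was measured whole, fewer cells of a type and less RNA per cell cannot be told apart.

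Toll-like receptors recognise molecules of microbes and some molecules set free by damaged cells, at the cell surface or inside endosomes. Through the adaptors MyD88 and TRIF they engage IRAK and TRAF proteins, the kinase TAK1 and the IKK complex, which marks the IκB inhibitors for destruction and so lets NF-κB dimers enter the nucleus. NF-κB is known to switch on cytokine genes, the inflammasome sensor Nlrp3 and several of its own inhibitors, and in injured muscle the pathway is best known from infiltrating macrophages and neutrophils.

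The 52 genes were on the whole listed at lower levels than the rest of the table. Their median per-length level was 1.43, with quartiles at 0.46 and 2.78, whereas all listed genes had a median of 2.27 and quartiles at 0.53 and 3.78. The difference of the medians was -0.85 on the log2 scale, and 16 of the 52 lay above the all-gene median while 36 lay below it. Above the upper quartile of all genes were 3 members, Tab2, Nfkbia and Irak1, and below the lower quartile were 14. With median transcript lengths the members above the upper quartile were Irak1, Map3k7, Tab2, Rela and Tab1, and Nfkbia lay at the 69.1st percentile. Without any length correction the medians were 3.19 log2 CPM for the members and 4.04 for all genes. Summed as CPM (2 to the power of the mean log2 CPM), the 52 genes came to 878 CPM, of which the 5 highest held 35.6%.

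**Figure D1:**
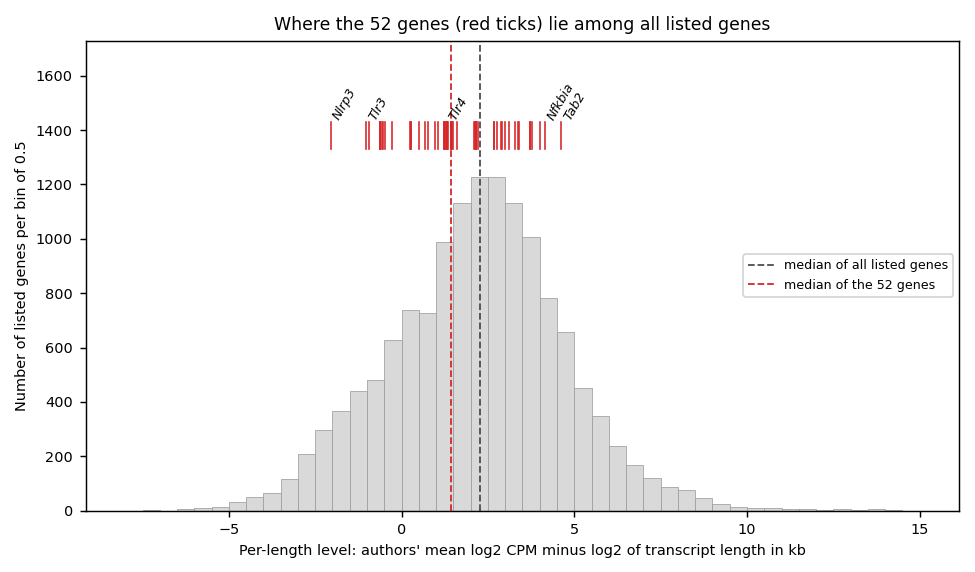
Grey bars count all listed genes in bins of 0.5 of per-length level (authors' mean log2 CPM minus log2 of transcript length in kb, x axis), and red ticks mark the 52 pathway genes. The members' median of 1.43 lies left of the all-gene median of 2.27, with Nlrp3 lowest at -2.05 and Tab2 highest at 4.62 by the longest coding transcript.

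Among the cell-surface receptors and their helpers, all 7 were listed, and the co-receptor was the highest. Cd14, which hands bacterial lipopolysaccharide to the receptor, had a mean of 3.39 log2 CPM and a per-length level of 2.68, the 57.0th percentile, and was the only 1 of the 7 above the all-gene median. With median transcript lengths it lay at the 45.4th percentile, below that median. Tlr4, the lipopolysaccharide receptor, had a mean of 3.33 log2 CPM and a per-length level of 1.30. Ly96, which encodes its binding partner MD-2, had only 0.77 log2 CPM, but its transcript is short (632 bases) and its per-length level was 1.43. The order of Tlr4 and Ly96 turned with the length used, from -0.12 (Tlr4 minus Ly96) with the longest transcript to 1.57 with the median one.

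Tlr2, which binds bacterial lipoproteins together with Tlr1 or Tlr6, had a mean of 2.85 log2 CPM and a per-length level of 1.26. It was higher than both of its partners. Per length it exceeded Tlr1 by 1.89, a ratio of 3.71, and Tlr6 by 1.84, a ratio of 3.57, and the median transcript lengths gave 1.77 and 1.00. Tlr1, the lowest of the 7 per length, stood at a level of -0.63 with a mean of 0.96 log2 CPM, and Tlr6 stood at 1.30 log2 CPM and -0.58. Tlr5, the flagellin receptor, lay between at -0.28.

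Tlr1 and Tlr6 are the 2 members that share most sequence with each other, which bears on how their reads can be divided. They lie 18.5 kb apart on the minus strand of chromosome 5 (GRCm38), and 20.1% of the 31-base words of the longest Tlr1 transcript and 16.6% of those of Tlr6 also occur in the other. The shared words fall into 9 identical runs with 873 bases in all, and every run lies in the coding sequence of both genes. The longest run has 229 bases, at chr5:64925537-64925765 in Tlr1 and chr5:64953828-64954056 in Tlr6 in GRCm38. Its first 150 bases are shown because reads from within them carry no base that separates the receptors. They correspond to coding positions 1468 to 1617 of Tlr1 and 1507 to 1656 of Tlr6, counted from the A of the start codon:

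Tlr1 and Tlr6: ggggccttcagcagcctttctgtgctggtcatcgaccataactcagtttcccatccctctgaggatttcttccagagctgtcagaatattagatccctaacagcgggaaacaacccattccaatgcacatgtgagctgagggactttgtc

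The next stretch runs across the end of the identical run, at chr5:64925497-64925576 in Tlr1 and chr5:64953788-64953867 in Tlr6, and capitals mark the 2 positions of 80 at which the genes differ:

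Tlr1: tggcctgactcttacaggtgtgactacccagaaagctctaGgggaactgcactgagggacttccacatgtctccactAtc
Tlr6: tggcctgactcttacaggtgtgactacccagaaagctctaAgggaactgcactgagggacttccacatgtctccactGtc

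All the runs lie between coding positions 1294 and 2203 of Tlr1, and some nearly touch, as where 1 ends at 1466 and the next begins at 1468. The genes are thus nearly identical over much of that block. No other pair of Toll-like receptors in the list shared more than 1% of its words. The levels of Tlr1 and Tlr6 are therefore given as uncertain, since the authors' pseudoalignment could divide their common reads in either direction.

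All 5 endosomal receptors, which sense nucleic acids, were listed, and all 5 lay below the lower quartile of all genes by per-length level. With median transcript lengths this held for 3 of them, while Tlr8 lay at the 35.0th percentile and Tlr3 at the 27.5th. Tlr13, which recognises bacterial ribosomal RNA, had 2.30 log2 CPM and the highest per-length level, 0.28, but with median lengths it lay at 1.16, below Tlr8, Tlr3 and Tlr7. Tlr7, a receptor for single-stranded RNA, had 2.23 log2 CPM and a level of 0.27, a gap of 0.01 to Tlr13. Tlr8 had 1.24 log2 CPM and a level of -0.54. Tlr9, the receptor for unmethylated CpG DNA, had 0.87 and -0.93. Tlr3, the receptor for double-stranded RNA, had 2.17 CPM and the lowest level, -1.02, whereas with median lengths it lay at 1.62 and Tlr9 was the lowest. Tlr7 exceeded Tlr8 by 0.81 per length with the longest transcripts, but lay 0.98 below it (-0.98) with the median ones, so these neighbours on the X chromosome, 40.6 kb apart, were not ordered. Tlr7 exceeded Tlr9 by 1.20 and by 2.22 under the same lengths.

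Of the 4 adaptors, Myd88, which serves nearly all Toll-like receptors and the interleukin-1 receptors, had 4.27 log2 CPM and the highest per-length level, 3.30, the 67.6th percentile, or the 49.0th with median lengths. Tirap, the bridge that brings MyD88 to Tlr2 and Tlr4, had 4.32 log2 CPM and a level of 2.12, and with median lengths it lay above Myd88, at 3.48 beside 3.30. Ticam1, which encodes TRIF, lay at 1.61, below Myd88 by 1.68 or 3.21-fold. Ticam2, which bridges TRIF to Tlr4, was the lowest at 1.58 log2 CPM and -0.49. Myd88 lies against Acaa1a on the opposite strand, with 10.1% of its words in common, and Ticam2 shares 19.4% of its words with Tmed7 on its own strand, so both levels may include reads of the neighbour.

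The kinases and ubiquitin ligases between adaptors and IKK held the highest member of the 52. Tab2, a ubiquitin-binding partner of TAK1, had a mean of 6.76 log2 CPM, equal to 108 CPM, and a per-length level of 4.62, the 85.0th percentile and the highest of the 52. With median lengths Irak1 (6.28) and Map3k7 (6.10) exceeded Tab2 (5.77). Irak1, the kinase recruited by MyD88, reached 5.96 log2 CPM and 4.02, and Map3k7, which encodes TAK1 itself, reached 5.89 log2 CPM and 3.36. The other IRAKs were lower than Irak1. Irak2 lay at 2.16, Irak3, the kinase-dead brake of the family, at 1.43, and Irak4, which phosphorylates Irak1, at 1.22, so Irak1 exceeded Irak4 by 2.80 per length (6.96-fold) and by 4.78 with median lengths. Among the TRAF ligases Traf2 lay at 3.00, Traf3 at 2.15 and Traf6, the one used by MyD88, at 1.45. Tab1 lay at 2.91, and Ripk1, a kinase of the TRIF and tumour necrosis factor pathways, at 1.33. Tab3, the close relative of Tab2, had 3.19 log2 CPM and the lowest per-length level of the 12, 0.52. Its place depended most on the length: 6364 bases for the longest transcript against a median of 546, which moved it from the 24.9th to the 60.6th percentile.

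All 3 subunits of the IKK complex were listed. Ikbkb, the catalytic IKKβ, had 5.09 log2 CPM and a per-length level of 3.10, Chuk, the catalytic IKKα, had 4.68 and 2.87, and Ikbkg, the scaffold NEMO, had 4.96 and 2.16. Ikbkb minus Chuk was 0.23 with the longest transcripts, 0.38 with the principal ones and 0.41 without a length correction. With the median ones it was -1.49, where Chuk entered at 796 bases, below its shortest coding transcript of 3481. Ikbkb minus Ikbkg was 0.94, 1.05 and 0.13 in the same order, and -0.96 with the median transcripts. Thus Ikbkb was the highest except with the median lengths, and the order inside the complex depended on the length used.

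Of the 5 NF-κB subunits 4 lay above the all-gene median, although with median transcript lengths Nfkb2 (46.9th percentile) and Relb (40.5th) fell below it. Rela, the transactivating p65, had 5.21 log2 CPM and the highest per-length level, 3.77, the 74.8th percentile. Nfkb1, which encodes p105 and its product p50, had the higher mean of 5.45 log2 CPM and a per-length level of 3.41. Nfkb2 and Relb, the pair of the non-canonical pathway, lay at 2.75 and 2.69. Rel, the c-Rel subunit known mainly from lymphoid and myeloid cells, was the exception, at 3.14 log2 CPM and 0.24, the 22.0th percentile. Rela exceeded Rel by 3.53 per length, 11.6-fold, by 5.32 with median lengths and by 2.07 without a length correction.

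The inhibitors and feedback regulators fell into a high and a low set with nothing between 1.24 and 3.70. Nfkbia, which encodes IκBα, the inhibitor that NF-κB itself induces, had 4.80 log2 CPM and a per-length level of 4.15, the 80.0th percentile. It was the next highest of the 52 after Tab2, but with median lengths it lay at 4.61 and 7 members exceeded it. Nfkbib, which encodes IκBβ, lay at 3.71 and Tnip1, a partner of the ubiquitin-editing enzyme A20, at 3.70. Tnfaip3, which encodes A20, had 3.38 log2 CPM and a level of 1.24. Nfkbie lay at 1.05, and Nfkbiz, a nuclear and inducible member of the IκB family, had 2.73 log2 CPM and the lowest per-length level of the group, 0.69. Nfkbia exceeded Tnfaip3 by 2.91 per length and by 2.58 with median lengths, and it exceeded Nfkbiz by 3.45 and 3.77. With Rela the order turned: Rela minus Nfkbia was -0.38 with the longest transcripts and 0.94 with the median ones.

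**Figure D2:**
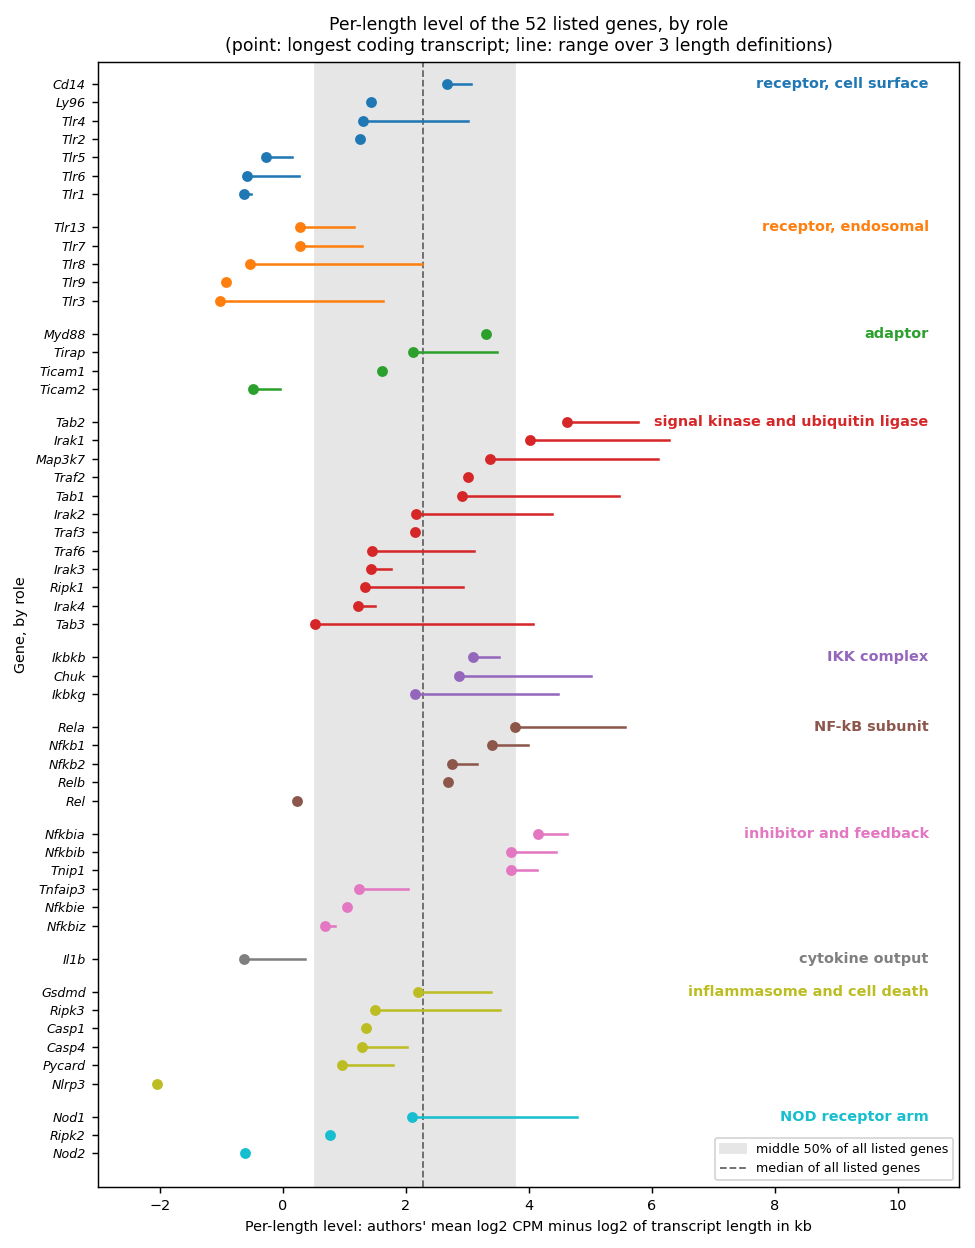
Points give the per-length level (x axis, authors' mean log2 CPM minus log2 of the longest coding transcript in kb) of each listed gene, grouped by role, and lines the range over 3 definitions of transcript length; the grey band and the dashed line are the middle 50% and the median of all listed genes with the longest transcripts. The points of all 5 endosomal receptors lie left of the band, those of 4 of 5 NF-κB subunits right of the dashed line, and Nlrp3 lies farthest left at -2.05.

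Of the 2 cytokine outputs, Tnf was not listed, which gives no measurement of its level. Il1b, the precursor that caspase-1 cuts, had -0.19 log2 CPM, equal to 0.88 CPM, and a per-length level of -0.62, the 14.0th percentile. It was the lowest of the 52 before length correction, and Nfkbia exceeded it by 4.77 per length, 27.3-fold, and by 4.26 with median lengths.

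All 6 inflammasome and cell death genes were listed, all of them below the all-gene median. With median lengths Ripk3 (52.5th percentile) and Gsdmd (50.4th) lay above it. Nlrp3, the sensor, had -0.04 log2 CPM and a per-length level of -2.05, the 5.46th percentile and the lowest of the 52 under all 3 lengths. The gap of 1.03 to Tlr3, the next lowest, was the largest between neighbours in the order by longest transcript. Pycard, which encodes the adaptor ASC, had 2.89 log2 CPM and 0.97, and Casp1, the effector protease, had 1.93 log2 CPM and 1.35. Casp1 exceeded Nlrp3 by 3.40 per length and by 3.37 with median lengths. Casp4, the mouse caspase-11 that senses lipopolysaccharide in the cytosol, lay at 1.29, and its difference from Casp1, which lies 1.56 kb away on chromosome 9, was 0.06 and turned to -0.67 with median lengths. Gsdmd, the pore protein both caspases cut, had 3.04 log2 CPM and the highest level of the 6, 2.20, but with median lengths it lay at 3.39 below Ripk3 at 3.52. Ripk3, the kinase of necroptosis, had 2.47 log2 CPM and lay at the 37.0th percentile per length.

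Nlrp3 and Il1b were the only members with a mean below 0 log2 CPM, that is below 1 CPM, as were 8.49% of all listed genes. The study's filter asked for more than 1 CPM in 3 or more samples before normalisation, so a mean below 1 CPM can arise where other samples lay lower or where the normalisation moved the values. Which of these held was not tested.

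The 3 genes of the NOD arm, cytosolic sensors of bacterial cell wall, spread widely. Nod1, the form found in many tissues, had 4.21 log2 CPM and a level of 2.10, whereas Nod2, known from myeloid cells, had 1.62 and -0.62. Nod1 minus Nod2 was 2.72 with the longest transcripts and 5.38 with the median ones. Ripk2, the kinase that both use, lay at 0.77.

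Ordered by role, the median per-length level was 1.26 for the cell-surface receptors and -0.54 for the endosomal ones. It was 1.87 for the adaptors, 2.16 for the kinases and ligases, 2.87 for IKK, 2.75 for the NF-κB subunits and 2.47 for the inhibitors, and the inflammasome genes had their median at the 34.4th percentile. With median transcript lengths the endosomal receptors stood at 1.29 beside 1.26 for the cell-surface ones. With principal transcripts they stood at -0.54 beside 1.26, and without a length correction at 1.24 beside 1.65 log2 CPM. The separation of the 2 receptor groups therefore depended on the length chosen. Among the 51 pairs of neighbours in the order of all 52, the length ranges overlapped in 36, and the median gap of 0.05 was small beside the median length range of 0.65. Below the all-gene median under every 1 of the 3 lengths were 29 members, and above it were 11.

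Genes of the same pathway outside the 53 were looked up from lists. Of 11 chaperones, co-receptors and brakes of the receptors 9 were listed (Tlr11 and Tlr12 were not), with a median level of 3.74. Unc93b1, the chaperone that carries the endosomal receptors to their compartment, lay at 4.61, above all 5 of those receptors, and Hsp90b1, the chaperone that folds most Toll-like receptors and many other proteins, lay at 6.84. Sigirr, a brake, was the lowest at -2.80. All 6 genes of the interferon branch were listed, from Ikbke at 0.94 to Irf7 at 3.13. All 15 regulators of ubiquitin and NF-κB were listed, from Tnip3 at -3.58 to Rbck1, a subunit of the linear ubiquitin ligase, at 4.35, with a median of 2.29. Of 19 other inflammasome and pyroptosis genes 16 were listed (Nlrp1a, Il18 and Gsdme were not), with a median of -0.03. The sensors Nlrp1b, Mefv, Naip5, Nlrc4 and Aim2 lay between -1.89 and -0.13, whereas Nek7, a kinase that Nlrp3 needs, lay at 4.23 and Txnip, a thioredoxin-binding protein with many metabolic roles, at 7.47.

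The tissue label was checked with marker genes. All 8 skeletal muscle markers were listed, with a median level of 11.53, as were 7 of 8 macrophage and monocyte markers at a median of 3.92 (Adgre1 was not listed). Of 8 neutrophil markers 3 were listed, at -0.04 to 1.57, and of 10 eosinophil markers only Ear2, at 0.61, of whose 31-base words 60.5% also occur in other genes. Other markers shared many words too. Among those of macrophages and monocytes the share was 74.1% for Itgam, 53.8% for Ly6c2 and 32.8% for Lyz2, and among those of muscle 44.9% for Myh1. Their levels may include reads of other genes. The 6 dendritic cell markers had a median of -1.13 and the 4 of 6 listed lymphocyte markers a median of -1.43. Endothelial and fibroblast markers were listed in full, at medians of 3.97 and 6.81. Gata1, the altered gene, was not listed and could not be used to check the genotype labels. Muscle, endothelial, fibroblast and immune cells all contribute to these means, and the part of each in the level of a pathway gene was not tested.

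**Figure D3:**
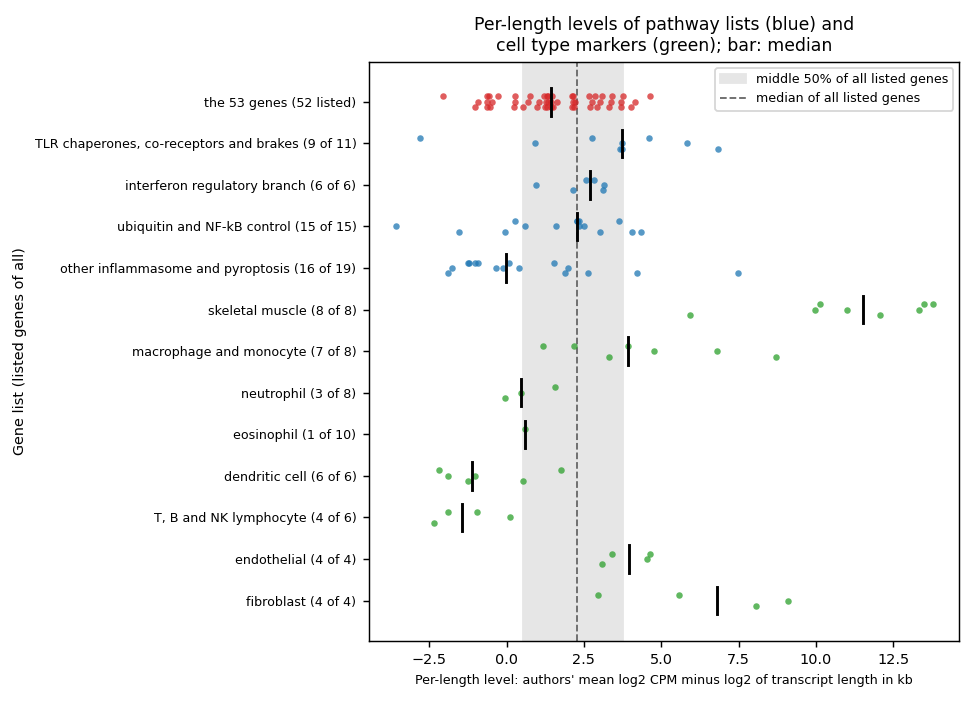
Each point is 1 listed gene at its per-length level (x axis, authors' mean log2 CPM minus log2 of transcript length in kb), with the 52 pathway genes in red, other pathway lists in blue and cell type markers in green; black bars are medians, and labels give the genes listed of all in the list. Muscle markers lie farthest right with a median of 11.53, and the other inflammasome genes have a median of -0.03.

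The median length of the longest coding transcript of the members was 3590 bases, against 3139 for all genes, and the median GC content was 49.4% against 50.3%. Over 10% of 31-base words in common with another gene were found for 9 of the 52 members and for 23.7% of all genes. Besides the pairs named above, Nfkbib shared 14.1% of its words with Ccer2, Nfkb2 shared 12.4% with AC114539.1 and Pycard shared 12.1% with Gm45205, each on the opposite strand. Nfkb2 also shared 7.05% with Psd on the opposite strand, and 19.4% of its words in all. Whether the counting used strand was not given in the sources used here, so reads of these pairs may not be separated. Irak2 and Tirap shared 15.6% and 13.4% of their words, spread over several genes. Their largest shares were 8.24% with Gm7229 on the same strand and 9.06% with Gm39318 on the opposite one. Map3k7, below the limit of 10%, shared 8.97% with Gm8188 on its own strand. The levels of Irak2, Tirap and Map3k7 may also include reads of other genes.

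Promoters in the RefSeq table of GRCm38.p6 were found for 40 of the 52 listed genes, 56 in all. Their 250 bases before the transcription start were searched on both strands for κB motifs. Tnf, which was not listed, was not searched. The motif GGGNNTTTCC was present in 10 of the 56 promoters (17.9%), from 8 genes, compared with 464 of all 32851 promoters (1.41%). The 10-base κB consensus, which overlaps with that motif, was present in 15 promoters of members (26.8%). This compared with 3.90% of all promoters and 4.64% of those of listed genes. All 10 promoters with the motif also held the consensus, as did 241 of the 464. The 8 genes were Casp4, Map3k7, Nfkb2, Nfkbia, Rel, Tlr3, Tnfaip3 and Traf3, and their per-length levels ran from -1.02 (Tlr3) to 4.15 (Nfkbia). Nfkbia, Nfkb2 and Rel are printed because each encodes a part of NF-κB or its inhibitor. Their sequences end at the base before the start site, are written on the strand of the gene and have matches to either motif in capitals. They lie at chr12:55492648-55492897 (minus), chr19:46304487-46304736 (plus) and chr11:23770970-23771219 (minus) in GRCm38:

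Nfkbia: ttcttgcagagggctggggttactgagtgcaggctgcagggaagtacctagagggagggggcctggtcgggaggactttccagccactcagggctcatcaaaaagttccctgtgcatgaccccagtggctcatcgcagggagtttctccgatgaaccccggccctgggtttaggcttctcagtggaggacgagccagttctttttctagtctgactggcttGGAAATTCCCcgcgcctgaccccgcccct
Nfkb2: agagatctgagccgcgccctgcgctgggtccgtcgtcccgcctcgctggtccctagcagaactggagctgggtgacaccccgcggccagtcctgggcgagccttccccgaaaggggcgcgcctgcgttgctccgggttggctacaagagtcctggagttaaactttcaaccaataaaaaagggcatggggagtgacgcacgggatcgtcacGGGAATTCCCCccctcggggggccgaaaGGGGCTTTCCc
Rel: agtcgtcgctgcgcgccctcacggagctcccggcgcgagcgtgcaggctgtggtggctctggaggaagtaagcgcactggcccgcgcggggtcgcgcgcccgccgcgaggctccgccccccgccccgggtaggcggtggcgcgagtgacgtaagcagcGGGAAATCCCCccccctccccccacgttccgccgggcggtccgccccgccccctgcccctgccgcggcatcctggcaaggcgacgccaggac

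Nfkb2 had other promoters, not printed, with matches that began at -236 and -225 from their own starts. In Nfkbia the match began 29 bases before the start, in the printed Nfkb2 promoter matches began 39 and 11 bases before it, and in Rel they began 92 bases before it. These genes stood at per-length levels of 4.15, 2.75 and 0.24, so matches in this window were found in genes of high and of low level. A match describes letters and not bound protein, which was not measured here.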

How the data were processed

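Bulk polyA RNA-seq of 6 injured mouse quadriceps was deposited as 1 table of gene symbols. Per the study's methods, the authors pseudoaligned reads with Kallisto, assigned genes with ensembldb, computed CPM with edgeR, removed genes unless 3 or more samples exceeded 1 CPM, normalised by the trimmed mean of M-values and fitted limma. The submitters' processing notes name GRCm39 (mm39). The deposited column used here holds the authors' mean log2 CPM over all 6 samples, printed without SD or n. The table's 5 columns of the authors' comparison between genotypes (fold change, its statistics and p-values) were not used, and it has 0 columns of values per sample. Therefore the planned limma test of genotype was not run, and depth per sample is unknown. Of the 14016 rows, 1 has no symbol and was left out of every level.

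Genes were matched by symbol to GENCODE M21 (GRCm38): 13458 directly and 490 by older symbols, 99.5% in all. Per-length level was mean log2 CPM minus log2 of the longest coding transcript in kb. Sequence sharing was counted in 31-base words over annotated transcripts on both strands, and was tested on simulated data. The level calculation was run on made values to which the same length term had been added. That run checks the arithmetic only and not whether the length correction suits these data. No test of a difference was made. Python 3.11.15, pandas 2.3.3 and numpy 2.4.6 were used. The members, role groups, pathway lists and markers were chosen with earlier results of these data known. Every member is accounted for, and full values are given for the highest and lowest of each role group plus Tlr2, Tlr4, Tlr13, Myd88, Nfkbia, Tnfaip3, Il1b, Tnf, Nlrp3 and Casp1. Alternatives were other transcript lengths, filters at 1 and 3 log2 CPM, protein-coding genes only, and genes sharing most words left out.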

Additional observations from a re-analysis of the deposited data

How the results depend on the processing

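The members' median per-length level of 1.43 moved to 2.48 with median transcript lengths, to 2.98 with the shortest coding transcript, to 3.19 without a length correction and to 2.68 among genes of at least 3 log2 CPM. The all-gene median moved with it, and the difference of the medians stayed negative in each of these and in the other alternatives run, from -1.21 to -0.55. The count of members above the all-gene median, 16, became 9 of the 31 members left at 3 log2 CPM, where fewer genes enter, and 14 to 19 otherwise. At that filter the members listed went from 52 to 31, and the rows of all genes from 14016 to 9323. The principal transcript, an alternative chosen after seeing the data, gave 1.44 and 16. No paired analysis was possible because the table holds no values per sample, although the sample titles share replicate numbers. For the same reason the replicate block, leaving out each replicate and median centring were not run. Replicate error and depth, which would limit every level here, are unknown.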
